A study of Mus musculus with 21 samples.

Results

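The 9 genes described here encode small leucine-rich proteoglycans of the dermal matrix: Dcn, Bgn, Aspn, Lum, Fmod, Kera, Prelp, Omd and Ogn. They were chosen by symbol, and all 9 were rows of a table of 20284 genes measured well by well in back skin of CD1 mouse embryos at embryonic stage E15.0. The wells come from 9 plate libraries, numbered 1 to 9 as in their titles, made by SORT-seq, an automated CEL-Seq2 protocol that tags each RNA molecule near its 3' end with a unique molecular identifier (UMI). A prefix in each well's name gives its population: Fb (fibroblast, 1371 wells), DC0 (149 wells), DC1 (152 wells), DC2 (151 wells) or ERCC (wells named for spike-in RNA). DC stands for dermal condensate, the cluster of dermal cells beneath a hair placode, and DC0, DC1 and DC2 wells together are called condensate wells.

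The labels name no treatment, transgene or genotype for any group, and all groups share strain, age and tissue. They do not define DC0, do not say whether the prefixes came from the sort or from clusters of these UMIs, and do not say whether libraries came from separate litters. If prefixes followed clusters, the 9 genes took part in setting them, and p-values between populations would not be independent of the naming. The p-values of the main fits, which block on library, measure how far the group differences vary from library to library. That spread may be technical. Libraries 1 to 7 held Fb wells together with 9 to 15 condensate wells each, library 8 held most DC0 and DC2 wells and library 9 most DC1 wells, with no Fb well in either. The median well held 18509 UMIs in Fb, 12773 in DC0, 10469 in DC1 and 8333 in DC2. Levels are in CPM (counts of a gene's UMIs scaled to the same total in the summed wells of every library), given as the mean ± SD over libraries. Of the 8 condensate markers (Sox2, Sox18, Foxd1, Cxcr4, Bmp4, Fgf10, Tbx18 and Prdm1), 8 of 8 were higher in condensate than in Fb wells, and of 7 fibroblast markers, which include Lum itself, 6 were lower and Twist2 was higher. Lower dermis and fascia markers had 7 of 7 tested genes lower in condensate wells, and pericyte markers had 3 of 4. Of 7 tested upper dermis markers, 3 were higher and 1 lower. The part of these other markers in the differences below was not tested.

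Small leucine-rich proteoglycans are secreted proteins whose curved leucine-rich repeats bind fibrillar collagen, setting how thick fibrils grow and how they are spaced, and several also bind growth factors of the transforming growth factor beta family. Decorin (Dcn), biglycan (Bgn) and asporin (Aspn) form class I, of which decorin and biglycan carry chondroitin or dermatan sulfate chains. Lumican (Lum), fibromodulin (Fmod), keratocan (Kera), Prelp and osteomodulin (Omd) form class II, several of which carry keratan sulfate, and osteoglycin (Ogn) belongs to class III. In skin, loss of decorin or lumican is known to leave collagen fibrils irregular and the skin fragile.

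Most of the genes lie in clusters, given here from GENCODE M21 on GRCm38 (mm10). On chromosome 10, Dcn (97479609 to 97518143), Lum (97565128 to 97572703) and Kera (97606879 to 97613692) lie on the plus strand within 134084 bases. On chromosome 13, Aspn (49544443 to 49567565), Omd (49582462 to 49592822) and Ogn (49608046 to 49624501) lie on the plus strand within 80059 bases, all inside the span of Cenpp, a centromere protein gene on the minus strand. Prelp (133910304 to 133921414, minus strand) and Fmod (134037254 to 134048277, plus strand) lie within 137974 bases of chromosome 1, and Bgn (73483602 to 73495933, plus strand) is on the X chromosome. Cenpp had 589 UMIs in Fb wells against 9028 for Aspn and 5928 for Ogn, and whether the counting used strand is not stated. Cenpp did not pass the test in either main comparison below (condensate minus Fb log2 difference -0.90, SE 0.50, adjusted p = 0.2 by edgeR).

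RefSeq start-site sequence (GRCm38.p6) was matched for 7 of the 9 genes, not for Dcn or Lum. The 250 bases before the RefSeq start are shown for Aspn, Ogn and Kera, which lie in 2 clusters and were all lower in Crabp1-high than in Crabp1-low Fb wells, and for Bgn, which was detected in most Fb wells of both kinds. For Ogn and Kera the RefSeq start lies apart from the GENCODE gene start given above. Each is written 5' to 3' on the gene's own strand, at chr13:49544193-49544442, chr13:49607765-49608014, chr10:97606955-97607204 and chrX:73483351-73483600. Capitals mark matches on either strand to 3 promoter motifs. The TATA box core, spelled TATAAA, is held by 12.4% of 32851 such windows, the CCAAT box by 33.8%, and the GC box, spelled GGGCGG, by 32.7%.
Aspn upstream: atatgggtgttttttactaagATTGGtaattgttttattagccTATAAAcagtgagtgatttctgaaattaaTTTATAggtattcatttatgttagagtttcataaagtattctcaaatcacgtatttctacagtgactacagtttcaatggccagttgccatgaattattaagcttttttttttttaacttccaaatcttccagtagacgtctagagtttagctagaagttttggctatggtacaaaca
Ogn upstream: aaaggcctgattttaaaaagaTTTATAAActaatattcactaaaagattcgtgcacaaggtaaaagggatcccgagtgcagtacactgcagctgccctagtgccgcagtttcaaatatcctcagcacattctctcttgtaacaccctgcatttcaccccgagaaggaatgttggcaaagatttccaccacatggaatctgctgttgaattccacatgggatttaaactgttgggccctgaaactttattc
Kera upstream: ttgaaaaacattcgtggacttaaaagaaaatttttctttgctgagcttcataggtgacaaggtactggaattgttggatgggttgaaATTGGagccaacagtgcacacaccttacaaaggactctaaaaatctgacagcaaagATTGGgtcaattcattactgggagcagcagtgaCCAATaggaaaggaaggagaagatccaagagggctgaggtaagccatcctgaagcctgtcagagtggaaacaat
Bgn upstream: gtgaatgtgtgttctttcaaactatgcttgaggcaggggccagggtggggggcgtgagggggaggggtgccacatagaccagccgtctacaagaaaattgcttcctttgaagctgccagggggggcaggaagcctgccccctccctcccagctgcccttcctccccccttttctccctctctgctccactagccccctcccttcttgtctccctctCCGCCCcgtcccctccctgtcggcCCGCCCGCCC
The Aspn window has 30.0% G and C, lower than all but 1.47% of windows, and holds the TATA core on each strand and a CCAAT box on the minus strand, 178 to 229 bases before the start. Ogn has 42.0% and overlapping TATA core matches on both strands, 229 and 227 bases before the start. Kera has 42.4% and 3 CCAAT boxes, and Bgn has 64.4% and 3 GC boxes, some overlapping, within 34 bases of the start. The windows of Fmod (51.2%), Prelp (55.6%) and Omd (38.4%) lie between those of Aspn and Bgn, and the median over all windows was 52.4%. A match is a run of letters and not a measured binding site.

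The question of the first comparison is how this gene family differs between condensate and fibroblast wells. In the 6 libraries with at least 10 condensate wells, 8 of the 9 genes passed the filter on low counts and were lower in condensate wells in a quasi-likelihood fit by edgeR that blocked on library (Benjamini-Hochberg adjusted p under 0.05). Over all 9640 genes tested, 13.2% were lower and 10.4% higher. Aspn, Fmod, Kera, Prelp and Ogn passed the filter only through the Fb wells, so the filter itself favoured a lower level in condensate wells. Their calls are no independent test, and the count is a description. Dcn, Bgn and Lum passed it in either group. The ninth gene, Omd, was too low to test.

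Among class I genes, Dcn, the collagen-coating proteoglycan decorin, had Fb levels over libraries 1 to 7 of 3115 (lowest), 3922 (median) and 4180 CPM (highest), and condensate levels of 410, 696 and 877 CPM. No condensate sum reached the lowest Fb sum. The log2 difference, condensate minus Fb, was -2.59 (SE 0.12, adjusted p = 3.29e-20, edgeR), lower in 6 of 6 libraries. Bgn, biglycan, went from 522, 563 and 638 CPM in Fb wells to 177, 270 and 341 CPM in condensate wells, which did not overlap either. Its log2 difference of -1.24 (SE 0.14, adjusted p = 2.47e-09, edgeR) was the smallest of the 8. Aspn, asporin, had 235, 299 and 323.4 CPM in Fb wells and 0, 11.3 and 22.2 CPM in condensate wells. Its log2 difference was -4.77 (SE 0.27, edgeR), given as a value alone since Aspn passed the filter only through the Fb wells.

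Among class II genes, Lum, lumican, had 1636, 1740 and 1855 CPM in Fb wells (lowest, median and highest library) and 317, 432 and 651 CPM in condensate wells. The groups did not overlap, and the log2 difference was -1.96 (SE 0.13, adjusted p = 1.2e-15, edgeR). Fmod, fibromodulin, fell from 23.1 ± 5.13 CPM to 0.876 ± 2.14 CPM (SD, n = 6 libraries), and in condensate wells it rested on 2 UMIs in all 6 libraries together. The ratio of the pooled levels was 12.7, with a 95% exact interval from counting alone of 3.51 to 105.4. Kera, keratocan, first known from the cornea, had 3 UMIs in those condensate wells and a ratio of 8.5 (interval 2.9 to 41.3), and its library ranges overlapped. Prelp, which links collagen to basement membrane proteoglycan, was at 29.0 ± 5.20 CPM in Fb and 9.74 ± 7.27 CPM in condensate wells (log2 difference -1.70, SE 0.45, adjusted p = 0.00382, edgeR). The condensate level came from 11 UMIs, and the filter was passed only through the Fb wells, so this call is no independent test. Without library 5, Prelp missed the threshold (edgeR, adjusted p = 0.0646). In libraries 1, 2 and 4, which the labels do not place in the sequencing run that the others share (they give no run for library 4), Kera (adjusted p = 0.163) and Prelp (adjusted p = 0.232) missed it and the other 6 genes were lower. Of these 6, Aspn, Fmod and Ogn had passed the main filter only through the Fb wells, so their calls are no independent test. Fmod had 0 UMIs in the condensate wells of libraries 1, 2 and 4, so its call there rests on the Fb counts.

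Ogn, osteoglycin, the class III member, had 147, 181.1 and 234 CPM in Fb wells and 0, 4.67 and 17.6 CPM in condensate wells. The log2 difference was -4.89 (SE 0.32, edgeR), given as a value alone since Ogn passed the filter only through the Fb wells. Omd, known from bone as osteoadherin, had 73 UMIs in all Fb wells (2.88 ± 3.21 CPM, n = 7) and 4 UMIs in the condensate wells of the same libraries (3.54 ± 5.51 CPM), and no difference could be detected at this depth.

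**Figure D1:**
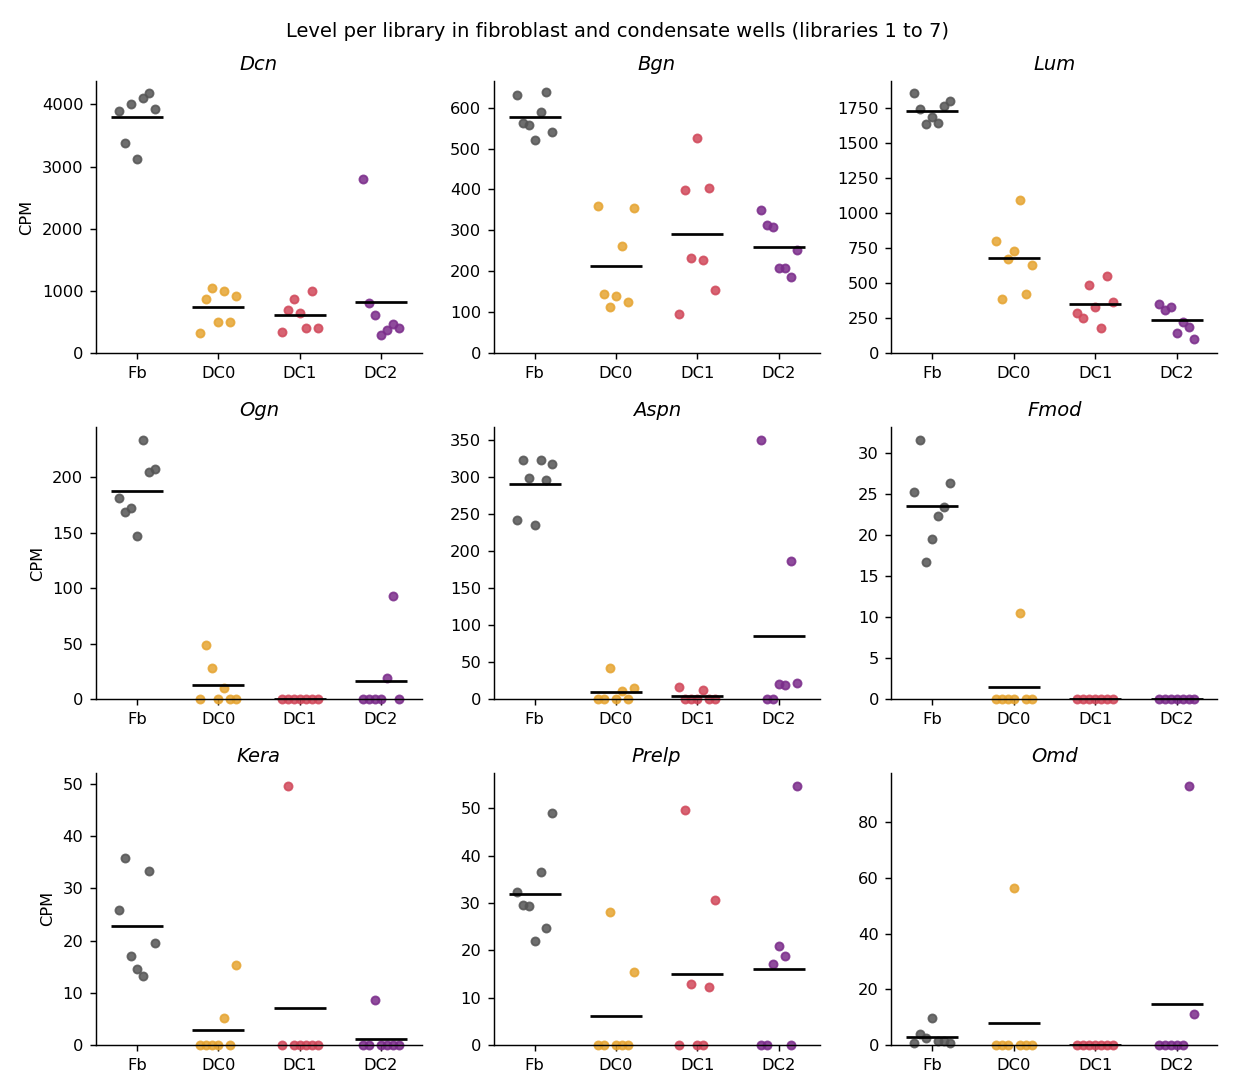
Level of each gene in CPM (vertical axis, linear, own scale per gene) in the summed wells of libraries 1 to 7 (points) by population, with the mean over libraries as a bar. Fb points of Dcn, Lum and Ogn lie above all DC0, DC1 and DC2 points. The DC2 sums rest on few UMIs, and library 1 (2855 UMIs in its DC2 wells) gives the high DC2 points of Dcn (2802 CPM) and Aspn (350 CPM).

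Wells named for spike-ins carried stray UMIs of the same genes, and these set what a low level can mean. The spike-in wells held 117 Dcn UMIs, or 0.813 per well, against 9.03, 7.96 and 3.54 per DC0, DC1 and DC2 well. For Ogn the spike-in wells held 0.0278 UMIs per well, against 0.0738, 0.0197 and 0.0464 per DC0, DC1 and DC2 well. Aspn had 0.0197 per DC1 and 0.0729 per DC2 well, against 0.0278 in spike-in wells. Of the 56 Aspn UMIs in DC0 wells, 49 lay in 1 well of library 8, and the other 148 wells held 0.0473 per well. With all libraries pooled, Ogn and Aspn were thus near this background in condensate wells. Libraries 1 to 7 alone held 6 Aspn UMIs in 25 DC0 wells, 2 in 30 DC1 wells and 8 in 29 DC2 wells. For Ogn the same wells held 5, 0 and 3 UMIs. The spike-in wells of these libraries, more in number, held 4 UMIs of each gene. There the DC0 and DC2 wells lay above the background per well, on these few UMIs. Such low counts of Ogn and Aspn are not read as expression in condensate wells. Dcn, Lum (2.14 UMIs per DC2 well against 0.201) and Bgn (2.39 against 0.139) were above the background with all libraries pooled.

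The populations were next taken apart in a fit with DC0, DC1, DC2 and Fb sums together, where sums of as few as 2 wells left 2069 genes and 5 members (Dcn, Bgn, Lum, Ogn and Aspn) past the filter. All 5 of these were lower than in Fb wells in DC0, in DC1 and in DC2. Ogn and Aspn passed the filter only through the Fb wells, so their calls are no independent test. The share of all tested genes called lower was 14.8% for DC0, 16.4% for DC1 and 25% for DC2, and these comparisons share the Fb sums. Ranges overlapped with Fb for Bgn in DC1, lower in 6 of 7 libraries and not called in the libraries not labelled with the shared run (adjusted p = 0.137, edgeR), and for Aspn in DC2, also lower in 6 of 7. Under RLE scaling the median of all genes in DC2 minus Fb moved from -0.08 to 0.02, and the 5 genes stayed between -1.29 (Bgn) and -5.28 (Aspn) on the log2 scale.

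The level of Lum was 1731 ± 81.6 CPM in Fb, 677 ± 238 in DC0, 351 ± 131 in DC1 and 236 ± 98.1 in DC2 wells (SD, n = 7 libraries). The log2 differences from Fb were -1.39 (SE 0.20) for DC0, -2.37 (SE 0.22) for DC1 and -3.24 (SE 0.24) for DC2 wells. Between DC2 and DC0 the difference was -1.85 (SE 0.24, adjusted p = 7.35e-07, edgeR), with every DC2 sum below every DC0 sum in the 8 libraries. That separation is narrow, since the highest DC2 sum, 350 CPM in library 1, was 1 UMI among 2855. The lowest DC0 sum was 386 CPM. Between DC1 and DC0 it was -0.98 (SE 0.24, adjusted p = 0.0232, edgeR), lower in 6 of 7 libraries with overlapping ranges. That call was lost without library 1 (adjusted p = 0.0883), library 4 (0.0807) or library 5 (0.303). It was also lost with no filter (0.108), in the shared run alone (0.418) and in the libraries not labelled with it (0.249). Thinning (0.393), a minimum of 5 wells a sum (0.45) and unthinned wells of at least 3000 UMIs (0.0688) lost it too (all edgeR). Between DC2 and DC1 it was -0.87 (SE 0.28) and did not pass (adjusted p = 0.0885, edgeR), lower in 4 of 7 libraries. Its unadjusted interval ran from -1.42 to -0.33 on the log2 scale.

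Dcn was at 739 ± 291 CPM in DC0, 622 ± 254 in DC1 and 824 ± 889 in DC2 wells, and the last value is raised by the DC2 wells of library 1. Its DC2 minus DC0 log2 difference was -0.82 (SE 0.245, adjusted p = 0.0174, edgeR), lower in 7 of 8 libraries. This call was lost without library 5 (adjusted p = 0.118), without library 8 (0.112), in the libraries not labelled with the shared run (0.67), after thinning (0.159), without the library block (0.0576) and with DESeq2 (0.0933). Bgn was at 213.9 ± 109 CPM in DC0, 291 ± 154 in DC1 and 261 ± 63.2 in DC2 wells. Its DC2 minus DC0 difference was 0.00 on the log2 scale, with an interval of -0.54 to 0.55.

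Counting called members, DC1 minus DC0 had 1 of 5 lower (Lum) where 0.193% of all genes were lower, DC2 minus DC1 had 0 of 5 where 1.3% were, and DC2 minus DC0 had 2 of 5 (Lum and Dcn) where 9.18% were. Between DC2 and DC1, 2 of 5 members had an unadjusted p under 0.05 in edgeR, as had 17% of all genes, and DESeq2 also called 0 members. These were Lum, lower in DC2, and Ogn, with 3 UMIs in DC2 and 0 in DC1 wells of libraries 1 to 7. The split of calls moved with scaling: 47.1% of the genes called between DC2 and DC1 were higher in DC2 under TMM and 65.2% under RLE, and 47.8% and 59.9% between DC2 and DC0. The directions of Lum and Dcn were the same under both. Ogn had 0 UMIs in DC1 wells of libraries 1 to 7, which places it at least 31.5-fold lower than in Fb wells, with a floor of 3 UMIs over the group. Aspn had 2 UMIs in DC1 wells, a ratio of 72.1 with an exact interval of 19.9 to 595. Fmod, also at 0 in DC1 wells, was at least 3.73-fold lower there and at least 2.98-fold lower in DC2 wells.

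Libraries 8 and 9 hold most of the condensate wells but no Fb wells, so they give values and no comparison with Fb. In library 8, Dcn was at 647 CPM in DC0 and 255 CPM in DC2 wells, Lum at 722 and 174 CPM, and Bgn at 250 and 193 CPM. Prelp was at 20.3 CPM (95% exact Poisson interval 13.7 to 29.0) and 38.3 CPM (28.6 to 50.2), the only one of these 4 genes with the higher value in DC2. Library 9, with DC1 wells alone, had 601 CPM of Dcn, 351 CPM of Lum, 198.3 CPM of Bgn and 45.2 CPM of Prelp. Of the 50 Aspn UMIs in the DC0 wells of library 8, 49 lay in 1 well, which also held 21 of the 23 Kera UMIs, all 6 Ogn UMIs, 129 Postn and 110 Thbs2 UMIs and 1 Sox18 UMI among 44482 UMIs. Without library 8, the Aspn difference between DC2 and DC0 changed sign, from -1.72 to 0.66 on the log2 scale.

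The second question is how the genes differ among fibroblast wells that vary in Crabp1, a retinoic acid binding protein gene that marks upper dermis of embryonic skin. The 1155 Fb wells with at least 3000 UMIs were split within each library into 3 groups of like size by Crabp1 CPM, which gave 388 Crabp1-low and 388 Crabp1-high wells over 7 libraries. Crabp1 itself was at 433 ± 84.4 CPM in the low and 4363 ± 448 CPM in the high group and was not tested. Of 8 members tested, 7 were lower and 1 was higher in the Crabp1-high group (edgeR, adjusted p under 0.05), where 19.4% of 9632 genes were lower and 20% were higher. Aspn, Fmod, Kera and Prelp passed the filter only through the low group, so their calls are no independent test and this count too is a description.

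Aspn differed most. It had 614, 766 and 807 CPM (lowest, median and highest library) in the low group, 7.19, 16.2 and 43.3 CPM in the middle group and 3.60, 10.9 and 14.9 CPM in the high group. The low group did not overlap the others, and the log2 difference, high minus low, was -6.24 (SE 0.11, edgeR). It is given as a value alone, since Aspn passed the filter only through the low group. Ogn had 334, 396 and 477 CPM in the low group and 23.7, 50.3 and 58.8 CPM in the high group, a difference of -3.29 (SE 0.11, adjusted p = 3.33e-17, edgeR). Kera went from 54.2 ± 21.6 to 1.86 ± 2.15 CPM, Fmod from 54.5 ± 11.9 to 3.65 ± 2.22 CPM and Prelp from 61.9 ± 15.7 to 10.3 ± 6.51 CPM (SD, n = 7 libraries), each wholly separate between the groups. Their log2 differences were -5.24 (SE 0.30), -3.77 (SE 0.24) and -2.56 (SE 0.23).

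Lum moved the other way. It had 1148, 1285 and 1449 CPM in the low group, 1685, 1877 and 2032 CPM in the middle group and 1989, 2190 and 2483 CPM in the high group. The log2 difference was 0.72 (SE 0.05, adjusted p = 7.62e-11, edgeR), higher in 7 of 7 libraries with no overlap. Bgn was lower by less, at 727 ± 79.2 CPM in the low, 480 ± 44.3 in the middle and 500 ± 37.3 CPM in the high group (log2 difference -0.63, SE 0.06, adjusted p = 3.17e-09, edgeR). Dcn was at 3962 ± 596 CPM in the low and 3797 ± 277 CPM in the high group, with overlapping ranges. Its difference of -0.14 (SE 0.05, adjusted p = 0.0434, edgeR) was lost without library 2, 3, 5 or 6 (adjusted p from 0.0959 to 0.176) and with DESeq2 (0.1), in 10 of its alternatives in all (adjusted p over all of them 0.00312 to 0.582). Omd, which lies between Aspn and Ogn on chromosome 13, was at 3.44 ± 3.18 CPM in the low and 3.59 ± 5.17 CPM in the high group, from 36 and 24 UMIs, and was too low to test.

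**Figure D2:**
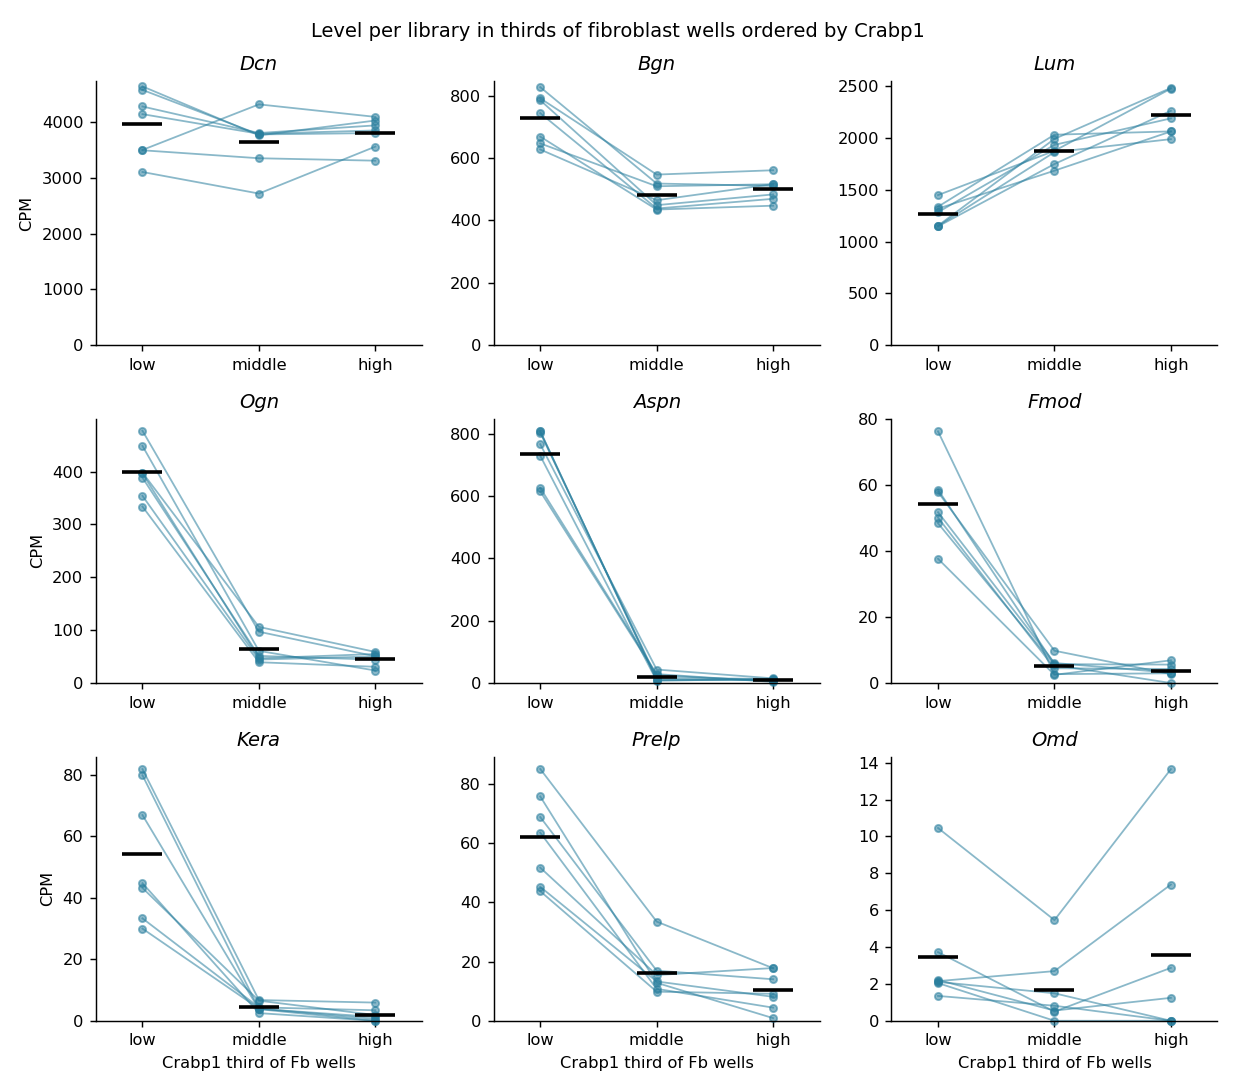
Level of each gene in CPM (vertical axis, linear, own scale per gene) in the low, middle and high Crabp1 group of Fb wells; each line is 1 of 7 libraries and the bar is the mean. Aspn, Kera, Fmod, Ogn and Prelp drop between the low and the middle group, Lum climbs in each step of the mean and Dcn shows overlapping points.

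The Crabp1 groups differed in depth and in other markers. The median well held 27316 UMIs in the low, 23735 in the middle and 18840 in the high group. Lower dermis and fascia markers had 7 of 7 tested genes lower in the high group (their summed level was 5912 to 9725 CPM in the low and 1670 to 2088 CPM in the high group, over libraries). Pericyte markers had 4 of 4 tested genes lower (237 to 333 against 66.0 to 106 CPM), and of 7 tendon and cartilage markers 2 were tested and lower (33.3 to 168 against 3.73 to 22.4 CPM, with Scx at 0 in the high group). Upper dermis markers other than Crabp1 had 6 of 6 tested genes higher, and 1 of 1 tested endothelial marker was lower. The part of these other markers in the member differences was not tested. After every well was thinned to 3000 UMIs, 5 members passed the filter and were called, 4 lower and Lum higher.

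At that common depth the genes fell into those found in nearly every Fb well and those found in few. At least 1 UMI was present in 99.6% of 1155 Fb wells for Dcn, 97.8% for Lum and 74.6% for Bgn, but in 24.8% for Ogn, 22.9% for Aspn, 6.32% for Prelp, 5.37% for Fmod, 4.5% for Kera and 0.952% for Omd. Unthinned, the shares over 1371 Fb wells were 95.9% for Dcn, 48.4% for Ogn and 33.5% for Aspn. Aspn was found in 59.5% (95% exact binomial interval 54.5 to 64.5) of Crabp1-low and 3.87% (2.18 to 6.3) of Crabp1-high wells, and Ogn in 50.5% and 8.51%. After this thinning neither Ogn nor Aspn was found in DC1 wells, which allows a share of wells with a UMI of up to 2.16% and sets no limit on wells that express the gene. Unthinned, each had 3 UMIs in 3 of 152 DC1 wells. Intervals and floors cover counting error only. Lum was found in 79.1% of DC0, 52.5% of DC1 and 32.2% of DC2 wells, with 34, 13 and 64 shallower wells left out. Of all Aspn UMIs in thinned Fb wells, 73.8% lay in the 10% of wells richest in Aspn, against 66.0% for Ogn, 22.1% for Lum and 19.0% for Dcn in the wells richest in each.

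**Figure D3:**
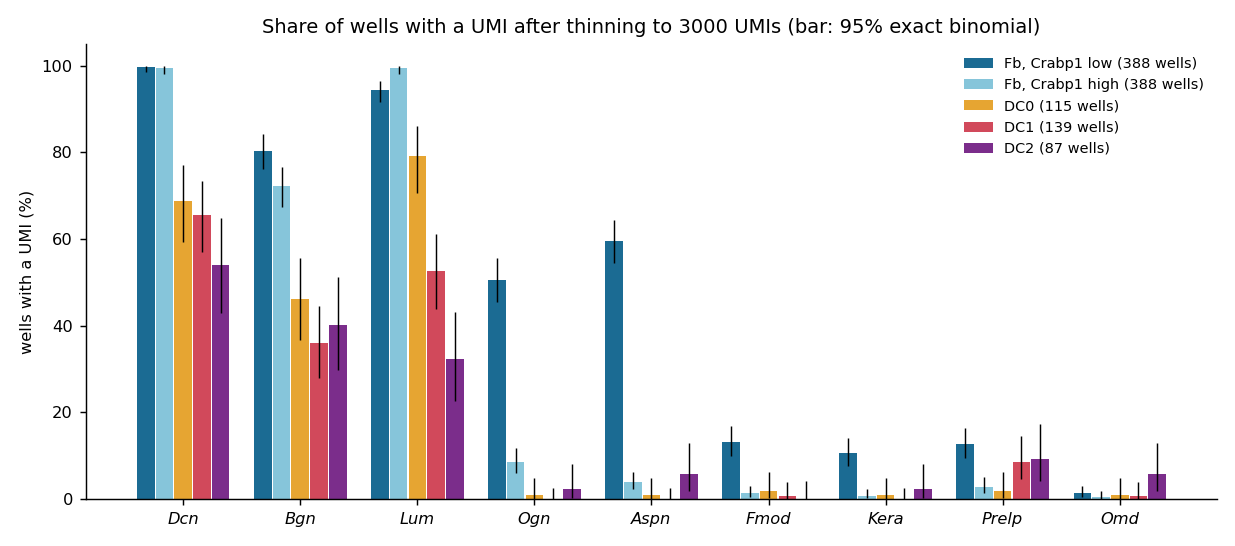
Share of wells with at least 1 UMI (vertical axis, %) for each gene after thinning to 3000 UMIs, in Crabp1-low and Crabp1-high Fb wells and in DC0, DC1 and DC2 wells; error bars are 95% exact binomial intervals. Dcn and Lum bars are high in both Fb groups, and Aspn reaches 59.5% only in the Crabp1-low group of the 5 groups drawn.

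Over the same 1155 wells, log2 thinned UMIs (1 added, centred by library) of Aspn correlated with Crabp1 at r = -0.63 and Ogn with Crabp1 at -0.47, while Lum correlated at 0.34 (a description, with no test, since wells share libraries). Ogn and Aspn correlated at 0.39. Of the 287 wells with Ogn and the 264 wells with Aspn, 50.2% of the Ogn wells and 54.5% of the Aspn wells had both. The same share was 69.2% of the 52 Kera wells and 54.8% of the 62 Fmod wells for Aspn. Kera and Fmod were found together in 4 wells, or 6.45% of the Fmod wells. With so few wells for each gene, that count does not set Kera and Fmod apart. By the rule of highest correlation over 3258 genes, the genes most like Aspn were Postn (0.63), Mfap4 (0.62) and Thbs2 (0.59), those most like Ogn were Agtr2 (0.51), Cdkn1c (0.50) and Plagl1 (0.49), and those most like Dcn were Sparc (0.45), Col1a2 (0.44) and Col3a1 (0.39). Lum was most like Crabp1 (0.34), Tcf4 (0.26) and Cav1 (0.24), and Bgn most like Col1a2 (0.24), Mfap4 (0.24) and Fibin (0.23).

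Because the control Fb wells hold both Crabp1 extremes, the condensate sums were also set against each extreme alone, a choice made after these data were seen. The Crabp1-low wells were known to be high in most of these genes, so the differences from them are given as values alone. Against Crabp1-low wells, where 16.4% of all genes were lower, Aspn was at -6.18 (SE 0.23), Ogn at -6.05 (SE 0.285), Kera at -4.26 (SE 0.53) and Lum at -1.59 (SE 0.13) on the log2 scale. Against Crabp1-high wells, where 12% of all genes were lower, 4 members passed the filter and were lower. These were Dcn at -2.49 (SE 0.13), Lum at -2.21 (SE 0.135), Ogn at -2.59 (SE 0.45) and Bgn at -0.91 (SE 0.145). Ogn passed the filter only through the Crabp1-high wells, and those wells were known to be high in Lum. The differences of Ogn and Lum are given as values alone. For Dcn and Bgn the adjusted p was at most 9.19e-05 (edgeR). Aspn, Prelp, Fmod and Kera did not pass the filter there. Aspn was at 11.3 ± 6.94 CPM in condensate and 10.3 ± 4.26 CPM in Crabp1-high wells, and Prelp at 13.6 ± 12.3 and 10.3 ± 6.51 CPM (SD, n = 7 libraries).

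**Figure D4:**
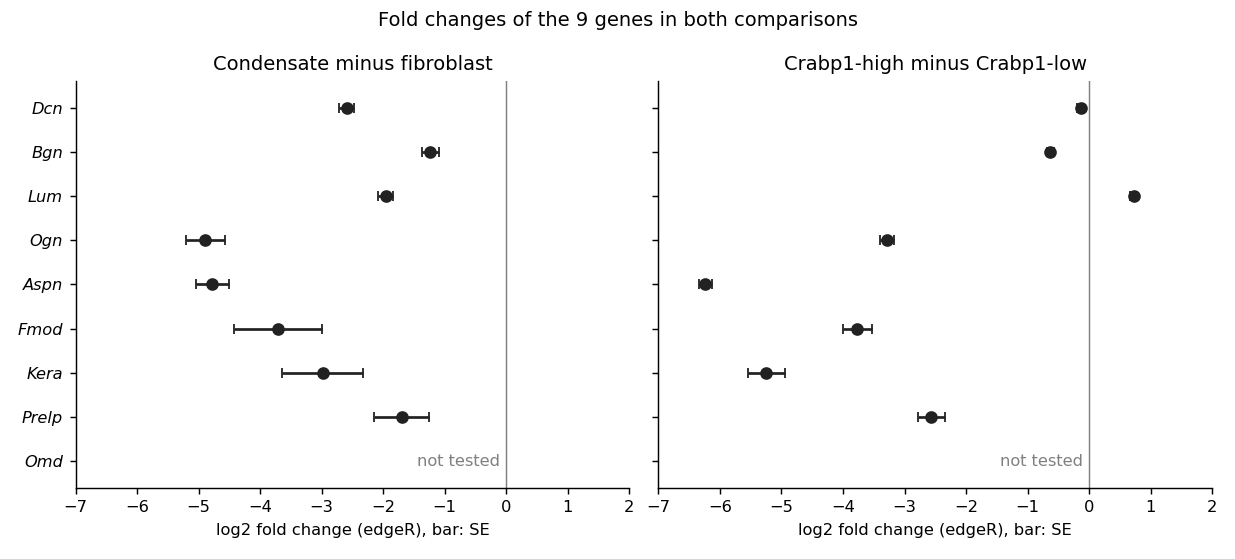
Log2 fold change from edgeR (horizontal axis) of each gene in condensate minus Fb sums (left, 6 libraries) and in Crabp1-high minus Crabp1-low Fb sums (right, 7 libraries), with the SE as a bar; Omd was not tested. Lum lies at -1.96 on the left and 0.72 on the right, and Dcn at -2.59 and -0.14. The control wells on the left include those split on the right.

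The wider machinery of collagen and proteoglycan matrix was read from gene lists chosen with earlier results of these data known. Of 16 tested fibrillar collagens and partners, 12 were lower and 2 higher in condensate than in Fb wells (13.2% and 10.4% of all genes), with a median log2 difference of -1.24 (-0.03 over all genes). Dpt, dermatopontin, which binds decorin, was at -4.83 (SE 0.22), Thbs2, a matricellular thrombospondin, at -4.29 (SE 0.23) and Col12a1 at -3.27 (SE 0.21). Col6a3 (0.53, SE 0.11) and Col6a2 (0.35, SE 0.10), chains of the microfibrillar collagen VI, were higher. Of 12 tested genes of collagen processing, 7 were lower, among them the cross-linking enzyme Lox (-5.13, SE 0.41) and Pcolce (-3.28, SE 0.23), and Loxl2 was higher (1.00, SE 0.14). Of 19 tested enzymes that build glycosaminoglycan chains, 9 were lower and 2 higher. The lower ones included Chpf (-1.50, SE 0.27), B4galt1 (-1.57, SE 0.22) and the dermatan epimerase Dse (-1.60, SE 0.29), while its relative Dsel was higher (0.86, SE 0.18). Xylt2, which starts the chains, was also higher (1.26, SE 0.28, in 5 of 6 libraries).

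Of 10 tested reported receptors and ligands of these proteoglycans, 2 were higher and 3 lower in condensate wells, where 10.4% of all genes were higher and 13.2% lower. Bmp4, a signal made by condensates and also one of the condensate markers, was at 3.45 (SE 0.18), Tgfbr1 at 0.86 (SE 0.18) and Lrp1, an endocytic receptor for decorin, at -1.02 (SE 0.16). Of 8 tested proteases that cleave proteoglycans, 4 were higher and 3 lower, with Adamts15 (3.21, SE 0.27) and Adamts20 (2.07, SE 0.18) the highest and Adamts9 (-1.61, SE 0.22) the lowest. Of 5 tested large proteoglycans and partners, 3 were higher and 2 lower. Among them Has2, the hyaluronan synthase, was higher (0.78, SE 0.26) and versican, Vcan, was lower (-0.57, SE 0.15).

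Between condensate populations, Col14a1 was higher (2.06, SE 0.41) and Eln, elastin, lower (-3.16, SE 0.47) in DC2 than in DC0 wells, among 4 higher and 3 lower of 15 tested collagens and partners, where 8.41% of all genes were higher and 9.18% lower. Vcan was also higher there (1.47, SE 0.26).

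Between the Crabp1 groups, 16 of 17 tested fibrillar collagens and partners were lower in the high group (19.4% of all genes were lower and 20% higher), with Thbs2 at -3.34 (SE 0.09), Col14a1 at -3.24 (SE 0.09) and Dpt at -2.86 (SE 0.10), and Col6a3 was higher at 0.16 (SE 0.05). Of 13 tested collagen processing genes 9 were lower, led by Loxl1 (-3.41, SE 0.11). Chain-building enzymes had 11 of 19 lower, with Chpf at -1.05 (SE 0.10). Vcan was at -2.26 (SE 0.07) and Has2 at 1.54 (SE 0.21). Of the other 9 small leucine-rich proteoglycan genes on the list, 1 passed the filter in this comparison and did not pass the test, and none passed the filter in the condensate comparison, Tsku, for one, being at 7.87 ± 1.29 CPM in Fb wells.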

How the data were processed

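The table of expected counts (UMIs per gene and well) is the authors' deposited one. Its values fit the formula for chance collisions among 4096 UMIs, read from the values, and were rounded to whole numbers (13.5% of values above 0 changed), since the design had assumed counts. The submitters' processing notes name mm10 and, with no role, BWA 0.6.2-r126, Cufflinks 2.1.1, TopHat2 2.0.3 and Bowtie2; the counting is not given in the sources used here. UMIs were summed per library and group, spike-in rows left out, and fitted with edgeR 4.0.16 (R 4.3.3; TMM, filterByExpr, library as a block, threshold 0.05). A sum needed 10 wells in the condensate comparison and 2 in the fit of 4 populations. Fold changes are log2, with SE from the F statistic. Same-library sums share a plate, which is why the library is the block. The fits were tested on simulated data. DESeq2 1.42.0, RLE scaling, no filter, no block, left-out libraries, runs apart and thinning were alternatives. The members and lists were chosen with earlier results of these data known; list genes are named when called with an average log2 CPM of at least 5, up to 3 in each direction. Totals per library ran from 1447590 to 6424841 UMIs, and totals per DC2 sum reached down to 2855. The 12 bulk samples were not analysed here. Python 3.11.15 was used for sums and figures.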

Additional observations from a re-analysis of the deposited data

Results flagged for a closer look

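Each of these values met a rule applied to all 9 genes. The Dcn level of library 1 in DC2 wells, 2802.1 CPM, lay far from the other 6 libraries (Dixon's test). The 4 wells hold 2855 UMIs, and chance alone would mark about 1 in 20 such groups, of which 30 were checked. Wells named for spike-ins held 117 Dcn, 20 Bgn, 29 Lum, 4 Ogn and 4 Aspn UMIs. The DC1 wells of library 9, which entered no comparison, held 864 Dcn, 285 Bgn, 504 Lum, 65 Prelp and 4 Omd UMIs.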

How the results depend on the processing

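Of the values of single members recomputed under alternatives, 726 kept their direction and their side of the threshold, 29 lost the call, 6 gained it and 13 changed sign. The causes were not tested. Members that no longer passed the filter under an alternative enter none of these counts, so a call lost that way is not among the 29. Alternatives on Crabp1-defined controls and unthinned wells of at least 3000 UMIs were chosen after seeing the data.

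In condensate minus Fb, 2276 genes were called, 1035 outside the shared run (libraries not labelled with it; the labels give no run for libraries 4, 8 and 9) and 559 after thinning, and 8 members, 5 after thinning and 4 with Crabp1-high controls. For DC0 minus Fb, 549 genes became 1577 with no filter, 207 outside the shared run and 81 after thinning, and 5 members became 2 after thinning and 3 with Crabp1-high controls. For DC1 minus Fb, 675 genes became 1683, 207 and 92, and 5 members became 8 with no filter, 3 outside the shared run, 2 after thinning and 3 with Crabp1-high controls. For DC2 minus Fb, 927 genes became 2935, 277 and 121, and 5 members became 2 after thinning and 3 with Crabp1-high controls.

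For DC1 minus DC0, 24 genes became 50 with no filter, 2 in the shared run, 3 outside it, 4 after thinning and 2 with 5 wells a sum; the 1 member became 0 in all of these and in unthinned wells of at least 3000 UMIs, and leaving out 1 library gave 0 to 1. For DC2 minus DC1, 51 genes became 114 with no filter, 16 in the shared run, 0 outside it, 5 after thinning and 6 with 5 wells a sum, and 18 (without library 3) to 54 when 1 library was left out. For DC2 minus DC0, 364 genes became 744 with no filter, 150 in the shared run, 48 outside it and 65 after thinning, and 200 (without library 8) to 413 when 1 library was left out; the 2 members became 1 with DESeq2, outside the shared run and after thinning, and 1 to 3 when 1 library was left out. Between Crabp1 groups, 3797 genes became 1555 outside the shared run and 939 after thinning, and 8 members became 5 after thinning. Without the library block, 2423 genes were called in condensate minus Fb, 2938 between Crabp1 groups, and Lum alone, 1 member, between DC2 and DC1 (adjusted p = 0.0464).

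The sign of Aspn in DC2 minus DC1 (0.84) changed to -0.20 without library 6 (other libraries left out gave up to 2.29, without library 8), -1.10 outside the shared run and -0.17 with 5 wells a sum. In DC2 minus DC0 (-1.72) it changed to 0.43 with DESeq2, 0.66 without library 8 (the lowest was -2.12, without library 6) and 0.16 in the shared run. Bgn in DC2 minus DC0 (0.00) became -0.086 with no filter, -0.0895 outside the shared run, -0.0944 with 5 wells a sum, and -0.25 to -0.04 without library 2 (-0.07), 3, 4 or 6; without another library it was at most 0.16. Depth limits the DC2 sums most, the smallest holding 2855 UMIs.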
